A study of Mus musculus with 4 samples.

Results

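The genes described here are the colony-stimulating factor ligands Csf1 and Il34 and the receptor chains Csf1r, Csf2ra, Csf2rb and Csf2rb2. They were chosen by gene symbol as the ligands and receptors that keep microglia alive, and all 6 were found among the 49993 genes of each count table. The samples were bulk RNA-seq libraries of CD11b+ microglia, sorted magnetically from brain at an age of 10 months. Every animal carried APP/PS1, a transgenic amyloid model of Alzheimer's disease. The AD group (n = 2 libraries) was APP/PS1+ asrij+/+, and the AD/KO group (n = 2 libraries) was APP/PS1+ asrij-/-, with asrij (Ociad1) deleted constitutively, so that every tissue and not microglia alone carried the deletion. The labels name no promoter for the transgenes, no sex and no number of mice per library, so that the p-values measure the spread between these libraries.

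Csf1 and interleukin-34, the product of Il34, are secreted proteins that bind the same receptor tyrosine kinase, Csf1r, although their sequences share little. Signalling through Csf1r is needed for the survival of microglia in the adult brain. In the brain, Il34 is known chiefly as a product of neurons, and Csf1 as a product of glia. Csf2ra is the chain that binds GM-CSF, the product of Csf2, and it signals together with the beta common chain encoded by Csf2rb. Csf2rb2 is a mouse gene for another beta chain that serves interleukin-3.

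Csf2rb and Csf2rb2 lie side by side on chromosome 15, with 20078 bases between them, and the coding parts of their messages are near copies. Their coding sequences were 95.2% identical over 2631 aligned bases, and the longest stretch without a difference was 242 bases. The lines below show coding bases 19 to 138 of both (GENCODE M21, GRCm38, 5′ to 3′), a window whose identity is close to that of the whole. Capitals mark the 6 bases that differ.
Csf2rb: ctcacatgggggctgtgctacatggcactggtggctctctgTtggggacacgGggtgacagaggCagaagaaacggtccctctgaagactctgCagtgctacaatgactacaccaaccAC
Csf2rb2: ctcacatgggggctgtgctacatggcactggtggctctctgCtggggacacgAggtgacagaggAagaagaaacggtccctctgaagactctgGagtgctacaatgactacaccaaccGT
Of all stretches of 100 bases, 6.96% of those in the Csf2rb message and 7.20% of those in the Csf2rb2 message occurred unchanged in the other. The read length and the handling of reads that match both genes are not given in the sources used here, so that the split of counts between these genes is uncertain.

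Promoters of Csf1, Csf2ra and Csf2rb2 were read from RefSeq (GRCm38.p6). These are the gene with the largest difference between the labels, the gene with the smallest and a beta chain. Il34 and Csf2rb had no promoter entry in the source used, and the promoter of Csf1r is not reported here. Each line gives, on the strand of the gene, the 250 bases before the start that RefSeq's promoter is built on. For Csf2ra that start lies inside the annotated gene, so that the last 43 bases of its window belong to the gene. Capitals mark matches on either strand to GAGGAA, the core bound by the myeloid factor PU.1, or to the NF-kB consensus site.
Csf1 (chr3:107760470-107760719, minus strand): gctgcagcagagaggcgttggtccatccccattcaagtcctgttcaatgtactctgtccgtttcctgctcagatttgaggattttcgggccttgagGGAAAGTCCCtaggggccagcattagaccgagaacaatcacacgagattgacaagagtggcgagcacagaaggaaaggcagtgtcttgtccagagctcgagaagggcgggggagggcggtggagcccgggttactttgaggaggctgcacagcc
Csf2ra (chr19:61228419-61228668, minus strand): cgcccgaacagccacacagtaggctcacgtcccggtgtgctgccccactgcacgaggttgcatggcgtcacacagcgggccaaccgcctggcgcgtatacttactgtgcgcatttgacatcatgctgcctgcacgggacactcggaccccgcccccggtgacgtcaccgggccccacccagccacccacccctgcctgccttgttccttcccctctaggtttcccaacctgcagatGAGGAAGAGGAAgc
Csf2rb2 (chr15:78305722-78305971, minus strand): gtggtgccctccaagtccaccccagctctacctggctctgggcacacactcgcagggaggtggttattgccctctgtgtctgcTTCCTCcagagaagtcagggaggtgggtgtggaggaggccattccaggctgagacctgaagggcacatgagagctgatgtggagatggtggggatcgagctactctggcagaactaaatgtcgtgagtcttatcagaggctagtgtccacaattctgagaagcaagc
The Csf1 window held 1 match to the NF-kB consensus, on the other strand and starting 154 bases before that start, and no match to GAGGAA. The Csf2ra window held GAGGAA 2 times, at 14 and 8 bases before its end and so within those 43 bases. The Csf2rb2 window held GAGGAA 1 time, on the other strand. Of the promoters of 27025 genes, 23.1% held GAGGAA and 7.01% held the NF-kB consensus. Of the other motifs searched, the AP-1 site TGANTCA (6.87% of promoters) and the TATA box TATAAA (3504 of the 27025) matched none of the 3 windows, and the GC box GGGCGG (32.9%) matched that of Csf1 2 times and that of Csf2ra 1 time. A match is a description of the letters, and binding was not measured.

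The libraries held from 13102622 to 19810076 counts, and all 18 microglia markers were detected in them. P2ry12, a receptor that marks resting microglia, stood at 1337, 1037, 1323 and 348 CPM in AD replicates 1 and 2 and AD/KO replicates 1 and 2. CPM is the count scaled to library size after TMM normalization, and values for the 4 libraries are given in that order from here on. The summed level of the microglia list was 20174, 14471, 20596 and 6104 CPM, that of the neuron list (14 of 14 detected) 665, 2025, 1654 and 5086 CPM, and that of the astrocyte list (10 of 10) 2846, 5948, 6453 and 15239 CPM. AD/KO replicate 2 thus had the lowest summed microglia markers and the highest neuron and astrocyte markers, and fewer cells of a type cannot be told apart from less RNA per cell in bulk libraries. AD replicate 2 stood apart by its neutrophil markers (12 of 12 detected), at 4768 CPM against 381 to 576 CPM in the other libraries. The deleted gene, Ociad1, was at 50.2, 63.4, 38.9 and 32.1 CPM, so that the AD/KO libraries kept 62.5% of the AD level. Its counts thus showed no complete loss of the transcript. AD and AD/KO therefore name the labels of the libraries, and each direction given is a difference between labels. In edgeR's quasi-likelihood test, 0 of 21439 genes (0%) had a Benjamini-Hochberg adjusted p under 0.05, and 1175 had an unadjusted p under 0.05.

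All 6 genes passed the filter on low counts, and 0 of 6 passed the adjusted threshold, as over all genes. Csf1 was the 1 gene of the 6 that was lower in AD/KO at an unadjusted p under 0.05, where 2.47% of all genes tested were. In 2 of the 6, Csf1 and Csf2rb, the AD/KO group was lower with no overlap, against 21.7% of all genes. Of the 6, 5 were lower in AD/KO, against 52.8% of all genes. With the replicate number as a block, a pairing for which the labels give no ground, 4 of the 6 passed, against 20.2% of all genes. In an exact permutation test of 2 against 2 libraries the smallest two-sided p is 0.333.

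Csf1 (gene ID 12977, chromosome 3, 107741048 to 107760469, protein-coding) had the largest log2 fold change of the 6 in size. It had 1206, 1729, 762 and 647 reads, or 87.5, 106, 39.7 and 35.1 CPM. The 2 AD libraries were high, the 2 AD/KO libraries were low, and the groups did not overlap. The mean was 96.9 ± 13.3 CPM for AD and 37.4 ± 3.26 CPM for AD/KO (SD, n = 2 each), which is 38.6% of the AD level. The log2 fold change was −1.37 (SE 0.28, 95% interval −2.10 to −0.65), with an unadjusted p of 0.00469 and an adjusted p of 0.653 (edgeR quasi-likelihood, Benjamini-Hochberg). With 1 library left out at a time it ran from −1.51 to −1.16.

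Set against the microglia markers, the Csf1 difference was less clear. For each 1000 reads of those markers there were 4.34, 7.34, 1.93 and 5.75 Csf1 reads. On this scale AD/KO replicate 1 was the lowest library, and AD/KO replicate 2 lay between the AD libraries. With libraries scaled to the microglia list, the log2 fold change of Csf1 was −0.62 (SE 1.01), where the median of all genes moved from −0.05 to 0.70. Astrocytes and oligodendrocytes are also known to make Csf1. All 10 astrocyte markers were highest in AD/KO replicate 2. The oligodendrocyte list (11 of 11 detected) summed to 1699, 2750, 4010 and 8716 CPM, with 7 of its markers highest in AD/KO replicate 2 and the other 4 (Mog, Mag, Opalin and Sox10) in AD replicate 2. The monocyte list (5 of 5 detected) was lower in both AD/KO libraries, as Csf1 was, at 83.4, 421, 38.3 and 49.8 CPM, with its receptor gene Ccr2 at 39.8, 40.0, 10.3 and 6.13 CPM. The border macrophage list (8 of 8) overlapped between the groups, at 812, 527, 808 and 311 CPM. Most of that sum was Stab1, at 679, 427, 739 and 251 CPM. Of its other markers, Mrc1, Cd163, Lyve1, F13a1 and Ms4a7 were lower in both AD/KO libraries, and Pf4 and Cbr2 overlapped. F13a1 was at 39.5, 39.3, 14.9 and 14.7 CPM. The part of these cells in the Csf1 counts was not tested.

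Il34 (gene ID 76527, chromosome 8, 110741829 to 110805949, protein-coding) had the fewest reads of the 6, with 23, 127, 108 and 274 reads. Its level was 1.67, 7.81, 5.63 and 14.9 CPM, highest in AD/KO replicate 2 and lowest in AD replicate 1, and the groups overlapped. The mean was 4.74 ± 4.34 CPM for AD and 10.3 ± 6.53 CPM for AD/KO (SD, n = 2 each). The log2 fold change of 1.11 (SE 0.88, 95% interval −1.15 to 3.36) did not pass the threshold (edgeR quasi-likelihood, Benjamini-Hochberg adjusted p = 0.673). Leaving out AD/KO replicate 2 gave 0.24 and leaving out AD replicate 1 gave 0.39. It was 2.68 when AD replicate 2 was left out and 1.71 when AD/KO replicate 1 was.

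The level of Il34 ran in the same order over the libraries as the neuron list. For each 1000 reads of the 14 neuron markers there were 2.51, 3.85, 3.40 and 2.92 Il34 reads. On that scale both AD/KO libraries lay between the AD libraries. The CPM of Il34 differed 8.91-fold between the highest and the lowest library, and the summed CPM of the neuron markers 7.65-fold. The log2 fold change of Il34 was −0.39, the opposite direction, in a fit with a covariate for neuron and astrocyte RNA. Among antisense genes, Gm15895 covers 3.83% of the exonic bases of Il34 and had 33, 24, 21 and 3 reads.

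**Figure D1:**
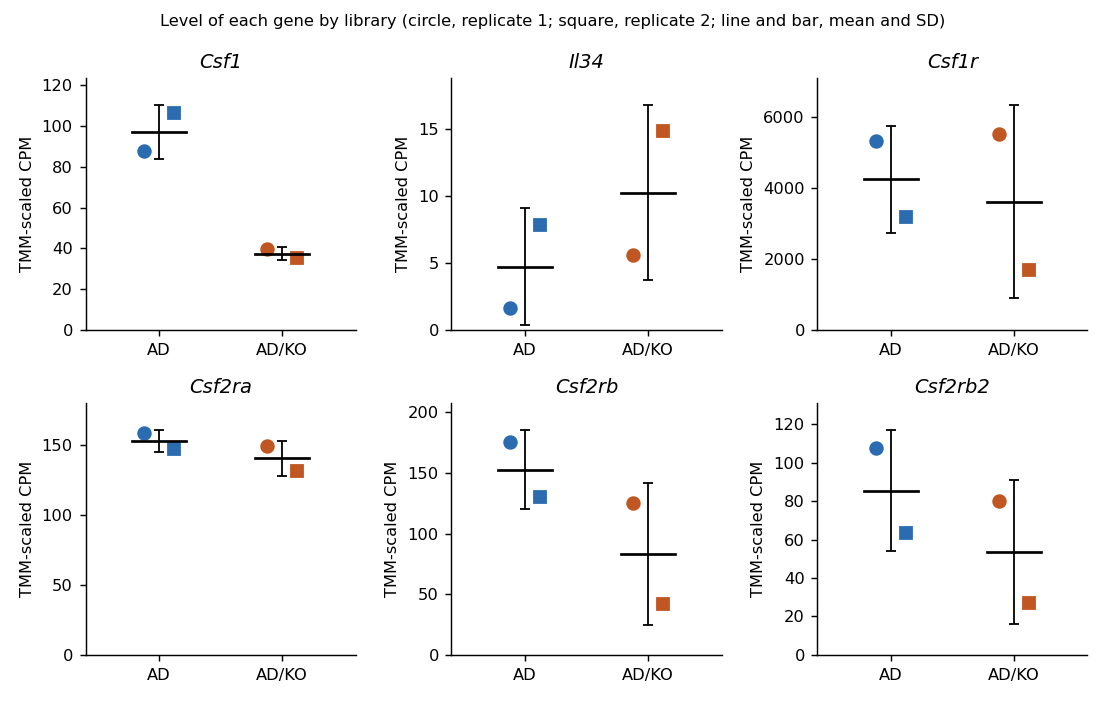
TMM-scaled CPM (linear axes from 0) of each of the 6 genes in the AD and AD/KO libraries, with circles for replicate 1, squares for replicate 2, and a line and bar for the mean and SD of 2 libraries. Csf1 and Csf2rb are the panels in which the groups do not overlap, and AD/KO replicate 2 is the lowest library for the 4 receptor chains.

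Csf1r (gene ID 12978, chromosome 18, 61105572 to 61131139, protein-coding), the receptor of both ligands, was among the genes with the most reads. It had 73214, 51790, 106064 and 31028 reads and ranked 5, 13, 8 and 36 among all genes by reads. Its level was 5314, 3183, 5530 and 1684 CPM, with a low library in each group. The mean was 4249 ± 1507 CPM for AD and 3607 ± 2719 CPM for AD/KO (SD, n = 2 each). The groups overlapped, and the log2 fold change of −0.24 (SE 1.14, 95% interval −3.17 to 2.69) was far smaller than the spread between libraries (edgeR quasi-likelihood, Benjamini-Hochberg adjusted p = 0.934). Its direction turned to 0.38 when AD/KO replicate 2 was left out and to 0.18 when AD replicate 1 was. It was −1.27 when AD/KO replicate 1 was left out and −0.49 when AD replicate 2 was.

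The level of Csf1r moved with the other microglia markers. Its CPM differed 3.28-fold between the highest and lowest library, as did the microglia list sum at 3.37-fold. For each 1000 reads of the microglia list, which does not hold Csf1r, there were 263, 220, 268 and 276 Csf1r reads, a range of 1.25-fold. On this scale AD replicate 2 was the lowest library and AD/KO was the higher group, at 272 ± 5.22 against 242 ± 30.7 (SD, n = 2 each), so that the sign of the difference depends on the scale. The gene Hmgxb3 on the other strand covers 15.1% of the exonic bases of Csf1r, and was itself at 63.5 to 94.1 CPM.

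Csf2ra (gene ID 12982, chromosome 19, 61217191 to 61228461, protein-coding), the GM-CSF binding chain, was the most even of the 6. It was at 158, 147, 149 and 131 CPM, a 1.20-fold range, and the groups overlapped. The mean was 153 ± 7.57 CPM for AD and 140.2 ± 12.4 CPM for AD/KO (SD, n = 2 each). The log2 fold change was −0.12 (SE 0.28, 95% interval −0.85 to 0.61; edgeR quasi-likelihood, Benjamini-Hochberg adjusted p = 0.866). It was −0.034 when AD/KO replicate 2 was left out and −0.070 when AD replicate 1 was. Unlike the other receptor chains, Csf2ra did not follow the microglia markers, and for each 1000 of their reads it had 7.83, 10.2, 7.23 and 21.5 reads. AD/KO replicate 2, with the lowest microglia markers, was the high library on that scale, and scaling to the microglia list gave a log2 fold change of 0.67.

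Csf2rb (gene ID 12983, chromosome 15, 78325800 to 78351001, protein-coding), the beta common chain and signalling partner of Csf2ra, was at 176, 129.8, 125 and 41.7 CPM. The groups did not overlap, although AD/KO replicate 1 was close to AD replicate 2. The mean was 153 ± 32.4 CPM for AD and 83.2 ± 58.8 CPM for AD/KO (SD, n = 2 each). The log2 fold change of −0.88 (SE 0.57, 95% interval −2.35 to 0.60) did not pass the threshold (edgeR quasi-likelihood, Benjamini-Hochberg adjusted p = 0.653). It was −0.29 when AD/KO replicate 2 was left out, −1.80 when AD/KO replicate 1 was and −0.11 with the neuron and astrocyte covariate. For each 1000 reads of the microglia list there were 8.70, 8.97, 6.06 and 6.83 Csf2rb reads, and the groups did not overlap on this scale either. The share of all genes without overlap on this scale is not given here. With libraries scaled to the microglia list, the log2 fold change of Csf2rb was −0.46 (SE 0.95), where the median of all genes was 0.70.

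Csf2rb2 (gene ID 12984, chromosome 15, 78282507 to 78305721, protein-coding), the beta chain for interleukin-3, was at 108, 63.3, 79.9 and 27.2 CPM. AD/KO replicate 1 lay between the AD libraries, so that the groups overlapped. The mean was 85.5 ± 31.3 CPM for AD and 53.5 ± 37.3 CPM for AD/KO (SD, n = 2 each). The log2 fold change was −0.67 (SE 0.59, 95% interval −2.20 to 0.85; edgeR quasi-likelihood, Benjamini-Hochberg adjusted p = 0.687). It was −0.098 when AD/KO replicate 2 was left out, −0.24 when AD replicate 1 was and −1.58 when AD/KO replicate 1 was. Per length, Csf2rb stood 1.58, 1.98, 1.51 and 1.48 times as high as Csf2rb2. The neighbouring genes thus kept close to the same ratio in 3 libraries, and the ratio was higher in AD replicate 2. Both genes had a lower CPM in that library than in AD replicate 1, and the cause was not tested.

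**Figure D2:**
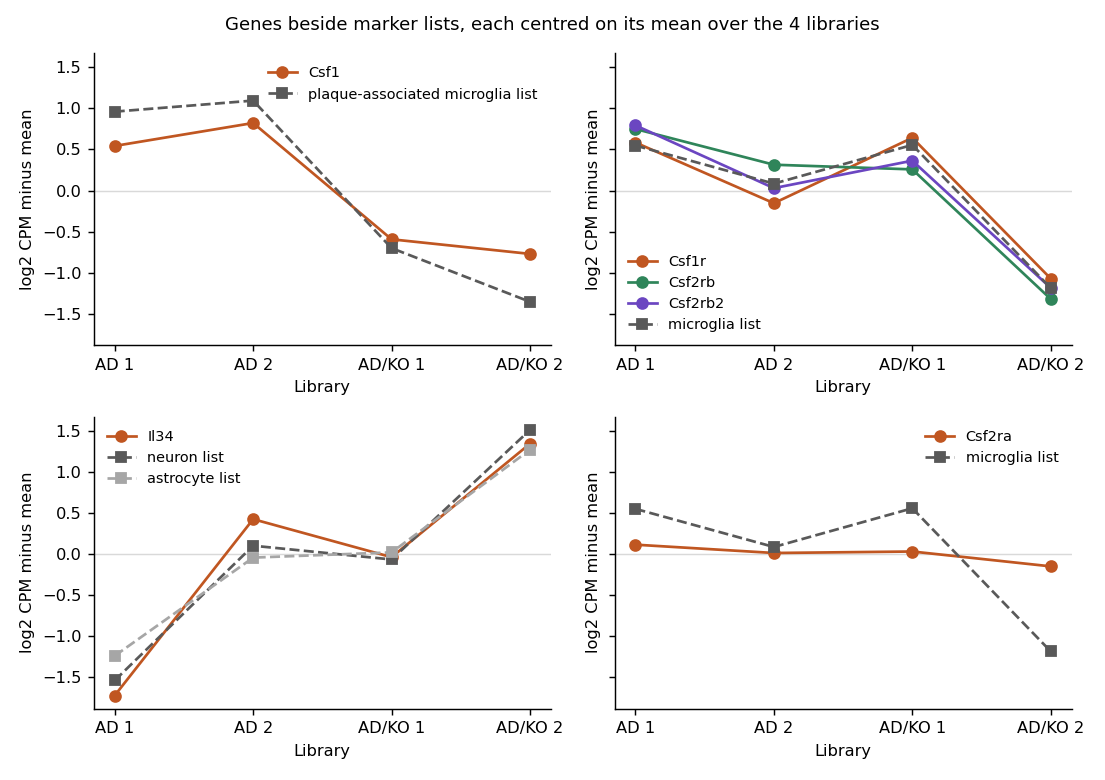
Log2 CPM of the 6 genes and of marker lists (mean over the list) in each library, each centred on its own mean over the 4 libraries, with lines drawn to guide the eye. Csf1r, Csf2rb and Csf2rb2 lie close to the microglia list, Il34 lies close to the neuron and astrocyte lists, and Csf2ra stays near 0 where the microglia list stands at −1.19 in AD/KO replicate 2.

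Levels were compared between genes as CPM per kb of the longest GENCODE M21 transcript. Csf1r was first in every library, at 1130, 677, 1176 and 358 CPM per kb. Csf2ra ranked 2 of the 6 in every library, at 69.3, 64.6, 65.4 and 57.7 CPM per kb. Csf2rb ranked 3 in every library on this length, at 35.8, 26.5, 25.5 and 8.51 CPM per kb. Below it the order was not stable, since Csf1 stood above Csf2rb2 in AD replicate 2 and AD/KO replicate 2 and below it in the other libraries. Il34 was last at 0.929, 4.35, 3.13 and 8.28 CPM per kb, except in AD/KO replicate 2, where it stood above Csf2rb2 (5.74 CPM per kb) and beside Csf1 (8.41 CPM per kb). The ratio of the ligands Csf1 to Il34 per kb was 22.6, 5.86, 3.03 and 1.02. This order below Csf2ra depends on the length used. With all exonic bases as the length, Csf2rb and Csf2rb2 were almost level, at means of 16.2 and 14.7 CPM per kb over the 4 libraries. On that length Csf1 (20.1 CPM per kb) stood above Csf2rb (17.8) in AD replicate 2. In AD/KO replicate 2 Csf2rb (5.73) stood below Il34 (7.59) and Csf1 (6.65) and level with Csf2rb2 (5.74).

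**Figure D3:**
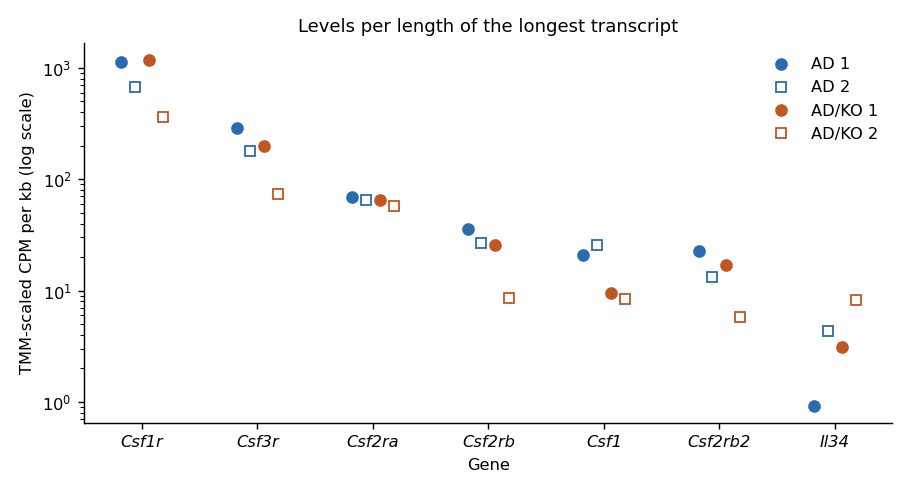
Level per kb of the longest transcript (log axis) of the 6 genes and Csf3r, by library, ordered by the mean over the 4 libraries. Csf1r is highest throughout, and Csf2ra shows the smallest spread between libraries.

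**Figure D4:**
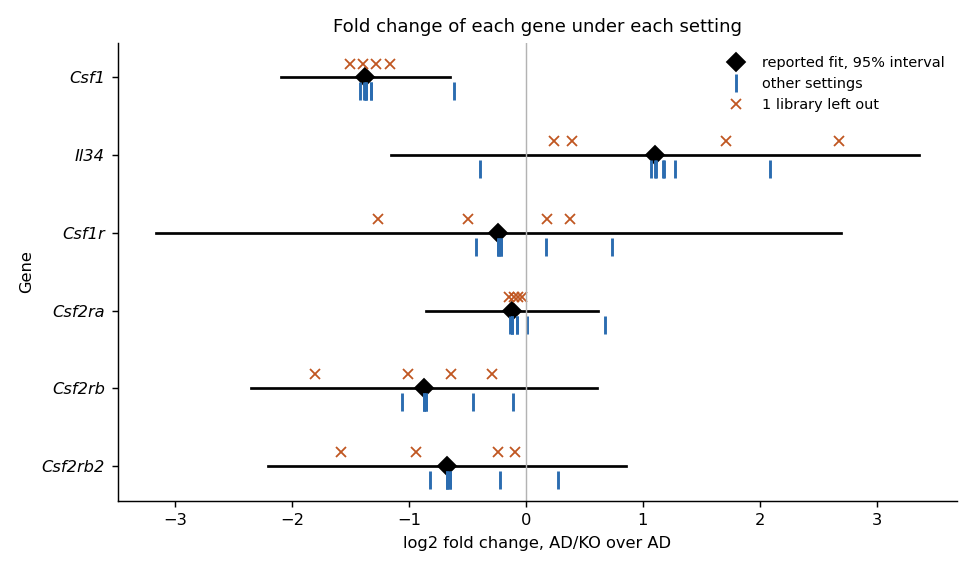
Log2 fold change of AD/KO over AD for each of the 6 genes, with diamonds and black lines for the reported fit and its 95% interval, blue ticks for other settings and crosses for fits without 1 library. The values of Csf1 and Csf2rb stay below 0 in every setting shown, and those of Il34, Csf1r, Csf2ra and Csf2rb2 lie on both sides of 0.

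Receptors of the wider family were read in these libraries, while several of their ligands had few reads or none. Csf2, the gene for GM-CSF, and Il3 had 0 reads in every library, which allows up to 0.156 to 0.218 CPM. Il5 had at most 2 reads, and Csf3, the gene for G-CSF, at most 4. Csf3r, the G-CSF receptor, was at 996, 629, 694 and 256 CPM, or 286, 181, 199 and 73.6 CPM per kb, above Csf2ra in each library. Its log2 fold change was −0.77 (SE 0.65), and its level did not follow the neutrophil markers, being lower in AD replicate 2 than in AD replicate 1. Il3ra, the chain that binds interleukin-3, was at 16.7, 9.22, 5.84 and 7.65 CPM and was lower in both AD/KO libraries (log2 fold change −0.94, SE 0.46). Il5ra had 6, 22, 4 and 7 reads and did not pass the filter.

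Of the 16 related ligands and receptors, 11 were tested, 7 were higher and 4 lower in AD/KO, and 0 had an unadjusted p under 0.05. Their median log2 fold change was 0.37, against −0.05 over all genes tested, and it turned to −0.16 when AD replicate 1 was left out, to −0.036 when AD/KO replicate 2 was, and to −0.066 with the neuron and astrocyte covariate. The highest log2 fold change was that of Ptprz1, a phosphatase of glia and neurons described as another receptor for interleukin-34. It was at 68.9, 187, 170.1 and 437 CPM (log2 fold change 1.25, SE 0.69), in the order of the neuron list. Flt3, a kinase of the same receptor class as Csf1r, was at 6.53, 7.38, 10.2 and 22.5 CPM (log2 fold change 1.23, SE 0.50). When AD/KO replicate 2 was left out, the log2 fold change was −0.23 for Csf3r, 0.41 for Ptprz1 and 0.55 for Flt3. It was −1.60 for Csf3r when AD/KO replicate 1 was left out and 2.21 for Ptprz1 when AD replicate 2 was, and leaving out AD replicate 1 gave −0.41 for Csf3r, 0.70 for Ptprz1 and −0.45 for Il3ra.

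Of 29 signalling partners of Csf1r, all tested, 22 were lower in AD/KO, against 52.8% of all genes. The other 7 were higher, and 0 of 29 passed the adjusted threshold. At an unadjusted p under 0.05 there was 1 lower gene, Fgr, and 1 higher gene, Src, so that 2 of 29 were called, near the 5.48% of all genes. Fgr, a Src family kinase of myeloid cells, was at 34.2, 60.7, 13.5 and 9.33 CPM, with no overlap between the groups (log2 fold change −2.05, SE 0.42). Its highest library was also the one with the high neutrophil markers, and without that library its log2 fold change was −1.51. Src was at 73.4, 77.8, 109.9 and 151 CPM (log2 fold change 0.79, SE 0.30). Tyrobp, an adaptor that couples Csf1r and Trem2 to Syk, was at 226, 263, 196 and 76.5 CPM, lower in both AD/KO libraries (log2 fold change −0.84, SE 0.52). Ptpn11, a phosphatase of growth factor signalling, was higher in both, at 94.2, 131, 148 and 256 CPM (log2 fold change 0.85, SE 0.40). When AD/KO replicate 2 was left out, the log2 fold change was −0.32 for Tyrobp and 0.40 for Ptpn11, and it was −1.61 for Tyrobp when AD/KO replicate 1 was. Fyn was at 26.8, 58.7, 54.8 and 106 CPM, and Inpp5d, with the most reads of the list, at 1130, 635, 948 and 313 CPM. The median of the list was −0.38, and it turned to 0.34 with scaling to the microglia list and to 0.13 with the neuron and astrocyte covariate, and was −0.097 without AD/KO replicate 2.

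Of 19 genes of beta chain signalling, all tested, 13 were lower in AD/KO, against 52.8% of all genes. The other 6 were higher, and 0 of 19 passed the adjusted threshold. Pim1, a survival kinase induced through Stat5, was the 1 gene of 19 with an unadjusted p under 0.05, a share near the 5.48% of all genes. It was at 16.3, 24.1, 8.71 and 9.88 CPM, with no overlap (log2 fold change −1.12, SE 0.37, and −0.75 when AD replicate 2 was left out). Jak2, the kinase bound to the beta chain, was at 76.8, 74.7, 60.2 and 55.0 CPM (log2 fold change −0.39, SE 0.26). Its target Stat5b stood at 108, 96.6, 98.0 and 79.2 CPM (log2 fold change −0.21, SE 0.28), a smaller difference than its SE; without AD/KO replicate 2 it was −0.062, and without AD replicate 1 it was −0.13. Myc was at 39.4, 25.5, 26.9 and 9.17 CPM, Socs2 at 3.41, 6.76, 5.79 and 12.8 CPM, and Lyn, with the most reads, at 481, 332, 377 and 140.4 CPM. The median of −0.36 turned to 0.41 with scaling to the microglia list, was −0.0048 with the neuron and astrocyte covariate, −0.11 when AD/KO replicate 2 was left out and −0.17 when AD replicate 1 was.

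Of 16 transcription factors of myeloid cells, all tested, 14 were lower in AD/KO, against 52.8% of all genes. The other 2 were higher, and 0 of 16 passed the adjusted threshold. With scaling to the microglia list 9 were lower and 7 higher, and with the neuron and astrocyte covariate 5 were lower and 11 higher. Spi1, which encodes PU.1 and drives Csf1r, was at 154, 122, 143 and 45.2 CPM (log2 fold change −0.55, SE 0.59), so that 3 libraries were close and AD/KO replicate 2 was low. Its direction turned to 0.056 when AD/KO replicate 2 was left out, and it was −1.54 when AD/KO replicate 1 was. Egr2, an immediate early gene, was the 1 gene of 16 with an unadjusted p under 0.05, near the 5.48% of all genes. It was at 6.68, 8.11, 2.19 and 0.488 CPM (log2 fold change −2.46, SE 0.79, and −3.83 when AD/KO replicate 1 was left out). Runx1 was at 228, 141, 151 and 45.0 CPM, and Mitf at 90.8, 54.6, 55.1 and 23.6 CPM. The immediate early genes Egr1 (18.1, 17.6, 20.4 and 32.8 CPM) and Fos (8.85, 5.53, 9.96 and 10.9 CPM) were the 2 higher ones, while Jun, of the same kind, was at 76.2, 71.5, 74.1 and 45.9 CPM. The median of −0.51 turned to 0.017 without AD/KO replicate 2 and to 0.13 with the neuron and astrocyte covariate, and was −1.39 without AD/KO replicate 1.

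Csf1 is also counted among the genes that microglia near amyloid plaques switch on, and 22 other such genes were set beside it. All 22 were lower in AD/KO (19 with scaling to the microglia list, and 21 with the neuron and astrocyte covariate or when AD replicate 2, AD/KO replicate 1 or AD/KO replicate 2 was left out), 20 of them with no overlap between the groups (21.7% of all genes), and 13 had an unadjusted p under 0.05 (2.47% of all genes), while 0 passed the adjusted threshold. Of all genes tested, 52.8% were lower in AD/KO. With DESeq2 10 of the 22 passed the adjusted threshold, against 0.248% of all genes, and with the replicate block 14, against 6.63%. The monocyte list was lower in both AD/KO libraries too, and its part in this difference was not tested. This list was drawn up with an earlier result of these libraries known, so that its direction is no independent evidence. Its median was −2.14, and Csf1 at −1.37 was a smaller difference than that median. The largest differences among genes with a mean of at least 5 CPM were those of Cst7, a cystatin (69.2, 91.8, 3.39 and 1.79 CPM; log2 fold change −4.95, SE 0.47), and Clec7a, a lectin receptor (78.5, 85.3, 10.1 and 9.88 CPM; log2 fold change −3.03, SE 0.28). Igf1, a growth factor, was at 18.1, 21.5, 2.61 and 2.55 CPM (log2 fold change −2.94, SE 0.38). Ctsd, a lysosomal protease with the most reads of the list, was at 4803, 4400, 3942 and 1327 CPM (log2 fold change −0.80, SE 1.06), and its log2 fold change was −0.22 when AD/KO replicate 2 was left out and −1.72 when AD/KO replicate 1 was.

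**Figure D5:**
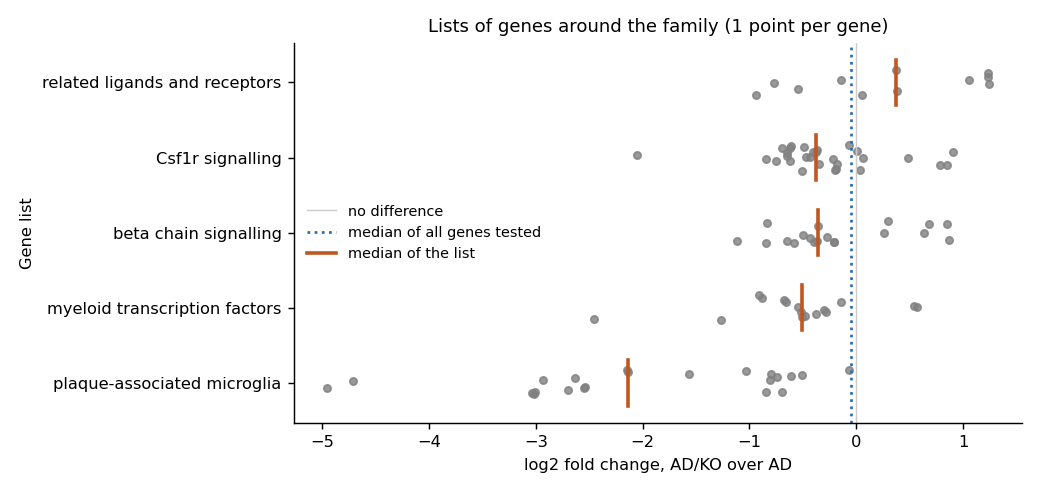
Log2 fold change of AD/KO over AD for each tested gene of 5 lists (grey points), with the median of each list (orange) and the median of all genes tested (dotted, −0.05). The plaque-associated list lies to the left with a median of −2.14, and the medians of the other 4 lists lie between −0.51 and 0.37.

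For each of the 6, the protein-coding genes with the most similar pattern were found among 10251 genes with a mean of at least 10 CPM. The measure was the root mean square difference of centred log2 CPM over the 4 libraries. For Csf1 these were Fgl2 (0.0792), F13a1, one of the border macrophage markers (0.118), and Smc4 (0.123). For Il34 they were Sel1l3 (0.0372), Anks1b (0.0399) and Trim66 (0.0417). Csf1r was closest to Unc93b1 (0.0126), Csf2rb to Cdk6 (0.0374) and Csf2rb2 to Cd33 (0.0145). The distance of Csf1 to its nearest gene was the largest of the 6. Fgl2 was at 25.0, 31.3, 10.1 and 9.82 CPM. Both AD/KO libraries were low and near each other, as for Csf1, which follows from how Fgl2 was chosen.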

How the data were processed

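The data were whole-number read counts per gene symbol, 1 table per library, deposited by the authors and not normalized. The submitters' processing notes name FastQC, HISAT2, SAMtools, featureCounts, Subread, DESeq2 1.30.0 and the build mm10, without roles. The labels' protocols give rRNA depletion and a stranded kit, while the strand setting of the counting is not given in the sources used here. Each file had 11 broken lines, which held no count and were left out, and 0 columns lacked a sample. All 49993 symbols matched RefSeq for GRCm38.p6, the source of gene coordinates (counted from 1) and promoters, and transcripts came from GENCODE M21.

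Genes were kept by filterByExpr (minimum count 10, minimum total 15), scaled by TMM and tested with edgeR 4.0.16 in R 4.3.3 by the quasi-likelihood test on 4 libraries, with no covariate and a threshold of 0.05. The standard error is the size of the log2 fold change over the square root of F. The biological coefficient of variation was 44.5%. At this depth 3 reads were taken as the floor, and counting limits cover counting error only.

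Alternatives were DESeq2 1.42.0, its size factors, edgeR's legacy method, no filter, a mean of 1 CPM, the replicate number as a block, scaling to the microglia list, a neuron and astrocyte covariate, and each library left out. The 6 genes and all lists were chosen with earlier results of these data known. Named from each list, at a mean of at least 5 CPM, were the 2 largest differences in each direction and the highest level. List genes at that mean with an unadjusted p under 0.05 were named where shown. Spi1, Jak2, Stat5b, Jun and Egr2, the last of them below that mean, were added after their values were seen. Some genes that these rules name are not reported here. Lists share genes (Lyn, Shc1, Grb2, Ptpn11 and Tyrobp).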

Additional observations from a re-analysis of the deposited data

How the results depend on the processing

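With 2 libraries a group and a spread of this size, the lack of an adjusted call does not show that levels were equal. The number of genes called by edgeR was 0 (1175 at an unadjusted p under 0.05), and it was 86 with DESeq2 (37 higher and 49 lower), 4320 with the replicate block (2898 higher and 1422 lower), 5 with the neuron and astrocyte covariate, and from 0 to 871 with 1 library left out (871 without AD replicate 2 and 46 without AD replicate 1). The cause was not tested. With libraries left out, the log2 fold change ran from −1.51 to −1.16 for Csf1, 0.24 to 2.68 for Il34, −1.27 to 0.38 for Csf1r, −0.14 to −0.034 for Csf2ra, −1.80 to −0.29 for Csf2rb and −1.58 to −0.10 for Csf2rb2. The fits without 1 library assume that the lone library varies like the others.

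Same-numbered libraries share only a number in the labels; their deviations from the group means had a correlation of 0.68 across genes. With the replicate block in edgeR's quasi-likelihood test, 4 of the 6 genes passed (Benjamini-Hochberg adjusted p), Csf1 at −1.37 (0.00531), Il34 at 1.27 (0.0375), Csf2rb at −1.06 (0.0428) and Csf2rb2 at −0.82 (0.0454), where 20.2% of all genes passed. Csf1r (−0.43) and Csf2ra (−0.12) did not. With DESeq2 as the test, the lowest adjusted p of the 6 was that of Csf1, at 0.212. With the neuron and astrocyte covariate the sign changed for Il34 (−0.39), Csf1r (0.73), Csf2ra (0.011) and Csf2rb2 (0.28), as it did for Ptprz1 (−0.066), Csf3r (0.0885), Fyn (−0.047), Inpp5d (0.52), Socs2 (−0.17), Myc (0.024), Lyn (0.13), Stat5b (0.0087), Spi1 (0.19) and Runx1 (0.041), and for the medians of related ligands and receptors (−0.066), Csf1r signalling (0.13) and transcription factors (0.13). With scaling to the microglia list it changed for Csf1r (0.17), Csf2ra (0.67), Ociad1 (0.0475), Il3ra (0.0021), Jak2 (0.41), Stat5b (0.55) and the medians of Csf1r signalling (0.34) and beta chain signalling (0.41). Over the fits without 1 library the sign also changed for Inpp5d (−1.43 to 0.10), Spi1 (−1.54 to 0.056) and the medians of related ligands and receptors (−0.16 to 1.33) and transcription factors (−1.39 to 0.017). The positive end for Inpp5d, Spi1 and the transcription factors came without AD/KO replicate 2. Relative to the median of all genes, which that microglia scaling moved to 0.70, Csf1 was at −1.31, against −1.32 in the reported fit. Taking off that median removes a shift shared by all genes, so that this closeness is no further evidence on Csf1. On the same measure Csf1r was at −0.53 against −0.19, Csf2rb at −1.15 against −0.83 and Csf2rb2 at −0.92 against −0.63. Il34 was at 1.39 against 1.15, and Csf2ra at −0.023 against −0.073.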
